A study of Rattus norvegicus with 12 samples.

Results

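Urate is a product of purine breakdown that leaves the body largely through the kidney. Expression of 7 urate transport and production genes was examined in the renal cortex of lean and obese Zucker rats, used as a model of obesity-related nephropathy (ORN). The genes were listed by function: the reabsorptive carriers Slc22a12 (URAT1) and Slc2a9 (GLUT9), the secretory carriers Abcg2, Slc17a1 (NPT1) and Slc17a3 (NPT4), the scaffold Pdzk1, and Xdh, the enzyme that makes urate. Earlier results of these data were known when the list was chosen. All 7 were present among the 13151 genes of the table, and all 7 were among the 11633 genes that were tested because 4 or more rats reached a value of 1.

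The 12 samples were whole renal cortex of male rats aged 32 weeks, 4 per group. Zucker lean rats (ZL) were the controls and received no drug, and Zucker fatty rats (ZF) were the untreated obese group. ZF-SGLT2i rats were ZF rats given canagliflozin, an inhibitor of the sodium-glucose cotransporter SGLT2, at 10 mg/kg/day in the food over 8 weeks, starting at an age of 24 weeks, with food per body weight matched to untreated ZF rats. The submitted design calls the obese rats leptin-deficient, whereas the methods give a deficient leptin receptor, and in either case every ZF and ZF-SGLT2i rat carries the inherited defect, which is not limited to the kidney. The methods describe a cohort of ZL and ZF rats with earlier kidney biopsies and a separate treatment cohort of ZF rats. The sequenced untreated rats are called ZF in one place and by the name of the treatment cohort's untreated group in another, while ZL rats are described in the biopsied cohort, so cohort and group cannot be told apart in the comparisons of ZF-SGLT2i with ZL and, depending on the origin of the ZF rats, either of ZF with ZL or of ZF-SGLT2i with ZF. Reads on genes ranged from 8886901 to 12210257 per ZL rat, from 8824980 to 11191377 per ZF rat and from 8914666 to 10293049 per ZF-SGLT2i rat. Values are CPM, read counts scaled to the library size and by a factor per rat, and all fold changes and intervals are on the log2(CPM + 1) scale. The threshold for calling a gene was an adjusted p of 0.05 over all tested genes in limma, a linear model fitted to all genes at once.

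Xdh converts hypoxanthine to xanthine and xanthine to urate. Urate passes the glomerular filter, and proximal tubule cells take much of it back, through URAT1 on the luminal side and GLUT9 on the blood side. ABCG2, NPT1 and NPT4 carry urate out of the cell into the lumen, and PDZK1 holds several of these carriers in the luminal membrane. In rats, unlike in humans, the enzyme uricase breaks urate down further, mainly in the liver.

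In ZF compared with ZL rats, 5 of the 7 genes fell, namely Slc22a12, Abcg2, Slc17a1, Slc17a3 and Pdzk1, and 0 rose (limma). Of all tested genes, 10.6% were called lower and 8.19% higher in this comparison. Slc2a9 and Xdh were not called. The median log2 fold change of the 7 genes was −0.71, beside −0.0077 over all tested genes. For 4 of the 7, every ZF rat was below every ZL rat, which was so for 10.3% of all tested genes. The cortex was sequenced whole, so fewer cells of a type and less RNA per cell cannot be told apart in any of these values.

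**Figure D1:**
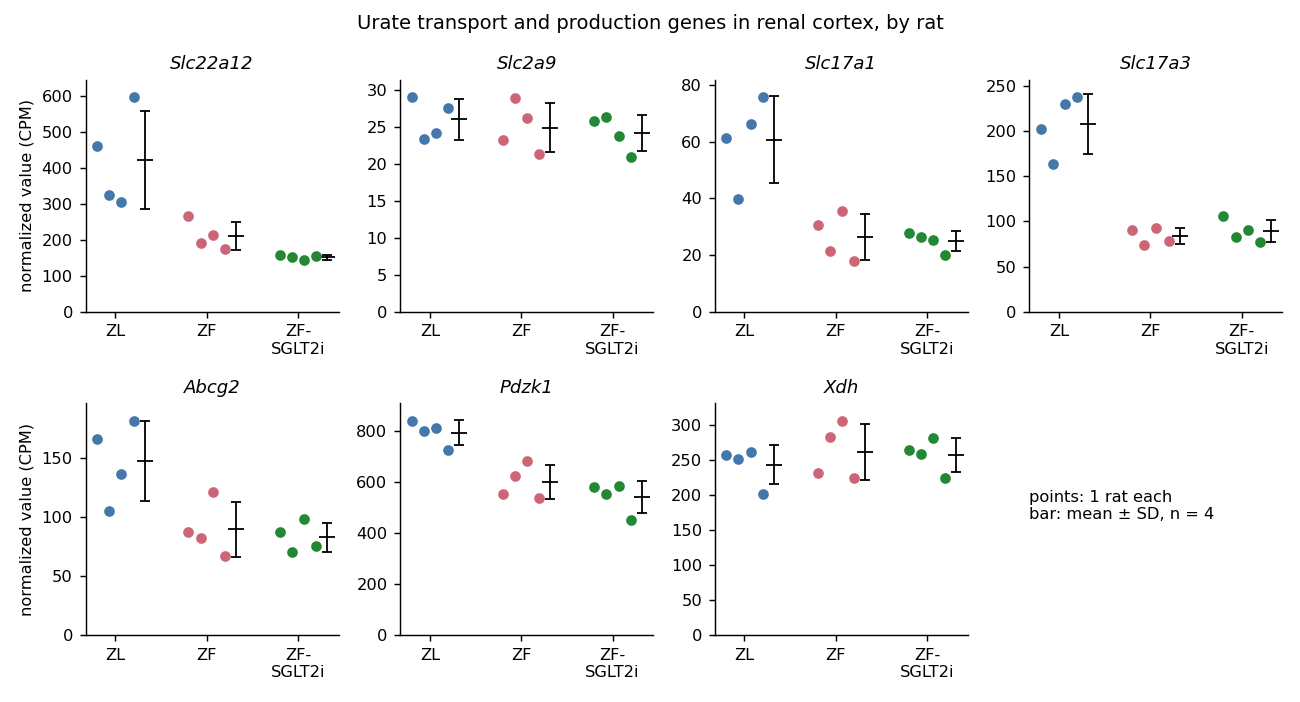
Normalized value (CPM, y axis from 0) of the 7 genes in each rat by group (x axis). Each point is 1 rat and each bar the mean ± SD of 4 rats. Slc22a12, Slc17a1, Slc17a3 and Pdzk1 show no ZF rat as high as any ZL rat, and Slc2a9 and Xdh overlap in all groups.

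The start regions of the 4 genes whose ZF and ZL rats did not overlap are shown here, 2 of which, Slc17a1 and Slc17a3, are neighbours on the chromosome. Each runs from 250 bases before to 50 bases after the annotated start, 5′ to 3′ on the strand of the gene, from RefSeq on build GRCr8. Slc22a12 is at chr1:213281331-213281630 on the minus strand, Slc17a1 at chr17:41681125-41681424 on the minus strand, Slc17a3 at chr17:41723060-41723359 on the minus strand, and Pdzk1 at chr2:187064745-187065044 on the plus strand. Capitals mark the matched motif letters described below.
Slc22a12: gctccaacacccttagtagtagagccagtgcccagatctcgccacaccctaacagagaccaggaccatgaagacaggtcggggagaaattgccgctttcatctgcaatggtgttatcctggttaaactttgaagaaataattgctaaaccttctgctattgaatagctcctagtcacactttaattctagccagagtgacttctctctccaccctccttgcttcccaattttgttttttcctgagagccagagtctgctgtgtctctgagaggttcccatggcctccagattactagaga
Slc17a1: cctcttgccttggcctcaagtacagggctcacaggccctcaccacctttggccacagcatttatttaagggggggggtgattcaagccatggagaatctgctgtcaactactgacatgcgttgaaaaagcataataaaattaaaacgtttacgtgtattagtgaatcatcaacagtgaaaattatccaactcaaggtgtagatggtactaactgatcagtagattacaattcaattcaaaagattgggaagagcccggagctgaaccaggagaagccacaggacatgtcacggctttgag
Slc17a3: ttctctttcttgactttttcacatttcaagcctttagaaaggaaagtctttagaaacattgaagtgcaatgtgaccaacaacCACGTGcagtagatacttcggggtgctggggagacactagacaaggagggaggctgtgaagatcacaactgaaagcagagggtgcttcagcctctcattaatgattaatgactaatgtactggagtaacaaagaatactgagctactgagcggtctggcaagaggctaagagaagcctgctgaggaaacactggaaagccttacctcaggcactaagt
Pdzk1: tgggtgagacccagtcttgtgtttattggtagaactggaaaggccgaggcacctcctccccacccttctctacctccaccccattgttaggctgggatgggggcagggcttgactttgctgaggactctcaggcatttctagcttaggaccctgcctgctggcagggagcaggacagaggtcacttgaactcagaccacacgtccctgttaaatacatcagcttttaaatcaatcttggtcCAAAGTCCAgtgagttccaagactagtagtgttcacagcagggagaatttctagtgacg

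All 7 genes matched an entry in the RefSeq promoter table, and matches of 2 motifs, searched on both strands of each region, are given. The HNF4 motif CAAAGTCCA was in 1 of the 7, at bases −9 to −1 before the start of Pdzk1, and in 0.391% of all 33469 regions of this length. The E-box CACGTG was in 1 of the 7, at bases −168 to −163 before the start of Slc17a3, and in 6.42% of all regions. No match overlapped another. A match is a description of the letters and not a measured binding site. The regions of Slc17a1 and Slc17a3 held 44.3% and 44.7% G and C bases, whereas that of Abcg2, on chromosome 4, held 68% and 29 CpG pairs, beside medians of 51.7% and 7 pairs over all regions.

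Slc22a12 encodes URAT1, the luminal exchanger that takes urate back from the filtrate. Its value was 461, 323, 304 and 597 CPM in ZL rats 1 to 4 and 265, 191, 213 and 174 CPM in ZF rats 2 to 5. In ZF-SGLT2i rats 2, 3, 4 and 6 it was 157, 151, 142 and 154 CPM. The 3 groups did not overlap, with ZL highest, ZF between and ZF-SGLT2i lowest. Group means were 421 ± 136, 211 ± 39.5 and 151 ± 6.34 CPM (SD, n = 4 each), from 1381 reads in the rat with fewest to 6680 in the rat with most. The rats of a group differed least in ZF-SGLT2i, where the SD was 4.20% of the mean, compared with 18.7% in ZF and 32.4% in ZL. The ZF mean was 50.1% of the ZL mean, a log2 fold change of −0.96 (95% interval −1.34 to −0.57; limma, adjusted p = 0.0035). A two-sided exact permutation test of 4 rats against 4 cannot go below p = 0.0286, and Slc22a12 reached that value.

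Slc2a9 encodes GLUT9, a urate carrier of the glucose transporter family. In ZL rats it was 29.1, 23.3, 24.2 and 27.6 CPM, in ZF rats 23.2, 29.0, 26.2 and 21.3 CPM, and in ZF-SGLT2i rats 25.8, 26.3, 23.7 and 21.0 CPM. The 3 groups overlapped throughout, and the spread within a group was wider than the distance between group means. Means were 26.0 ± 2.74, 24.9 ± 3.36 and 24.2 ± 2.44 CPM (SD, n = 4 each). The log2 fold change in ZF compared with ZL was −0.06, with a 95% interval of −0.29 to 0.16 (limma, adjusted p = 0.716). With 188 to 324 reads per rat, a change of the size seen in Slc22a12 lies outside that interval.

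Abcg2 encodes an ATP-driven pump that secretes urate and many drugs. Its value was 166, 105, 137 and 182 CPM in ZL rats, 87.4, 82.2, 122 and 67.7 CPM in ZF rats, and 87.9, 71.1, 98.2 and 75.7 CPM in ZF-SGLT2i rats. ZL and ZF overlapped in a single pair, because ZF rat 4 was above ZL rat 2. The ZF mean of 89.8 ± 22.9 CPM was 60.9% of the ZL mean of 148 ± 33.9 CPM (SD, n = 4 each), a log2 fold change of −0.71 (95% interval −1.10 to −0.32; limma, adjusted p = 0.0161). The two-sided exact permutation test gave p = 0.0571. Leaving out ZL rat 1 gave a log2 fold change of −0.65, which did not pass (limma, adjusted p = 0.0521), in a range of 0.00224 to 0.0521 over 23 alternatives.

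Slc17a1 and Slc17a3 encode NPT1 and NPT4, luminal anion carriers that secrete urate, and showed the largest falls among the 7 genes in ZF compared with ZL rats. Slc17a1 was 61.3, 39.7, 66.3 and 75.8 CPM in ZL rats, 30.5, 21.5, 35.5 and 17.9 CPM in ZF rats, and 27.9, 26.4, 25.3 and 20.1 CPM in ZF-SGLT2i rats. Every ZL rat was above every other rat, and ZF and ZF-SGLT2i rats were mixed. The means were 60.8 ± 15.3, 26.4 ± 8.05 and 24.9 ± 3.41 CPM (SD, n = 4 each), so the ZF mean was 43.4% of the ZL mean. The log2 fold change was −1.19 (95% interval −1.64 to −0.73; limma, adjusted p = 0.00259; two-sided exact permutation p = 0.0286).

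Slc17a3 was 202, 164, 229 and 238 CPM in ZL rats, 90.5, 74.1, 92.1 and 78.7 CPM in ZF rats, and 106, 82.5, 90.9 and 77.5 CPM in ZF-SGLT2i rats. The lowest ZL rat was well above all rats of the other groups, which overlapped each other. The means were 208 ± 33.2, 83.9 ± 8.85 and 89.1 ± 12.3 CPM (SD, n = 4 each), and the ZF mean was 40.3% of the ZL mean. The log2 fold change was −1.29 (95% interval −1.55 to −1.03; limma, adjusted p = 2.58e-05; two-sided exact permutation p = 0.0286). Both genes were called lower in ZF under all 23 alternatives, with log2 fold changes of −1.37 to −0.82 for Slc17a1 and −1.40 to −0.92 for Slc17a3.

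Slc17a1 and Slc17a3 sit side by side on chromosome 17, between Slc17a4 and Slc17a2, which encode related anion carriers. The order was taken from the RefSeq gene table, and reads shared between these related genes could not be separated. Slc17a4 was 11.0, 13.1, 15.4 and 6.97 CPM in ZL rats and 10.6, 13.6, 14.8 and 12.9 CPM in ZF rats. These rats overlapped, and the log2 fold change was 0.19 (limma, adjusted p = 0.545). Slc17a2 was 17.1, 15.6, 21.8 and 16.8 CPM in ZL rats and 14.0, 16.1, 13.5 and 12.2 CPM in ZF rats. One ZF rat lay above the lowest ZL rat, and the log2 fold change was −0.33 (limma, adjusted p = 0.0579). In ZF-SGLT2i compared with ZL rats Slc17a2 fell by 0.59 on the log2 scale (limma, adjusted p = 0.0020). The difference in fold change between the inner and the outer genes of the cluster was not tested.

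**Figure D2:**
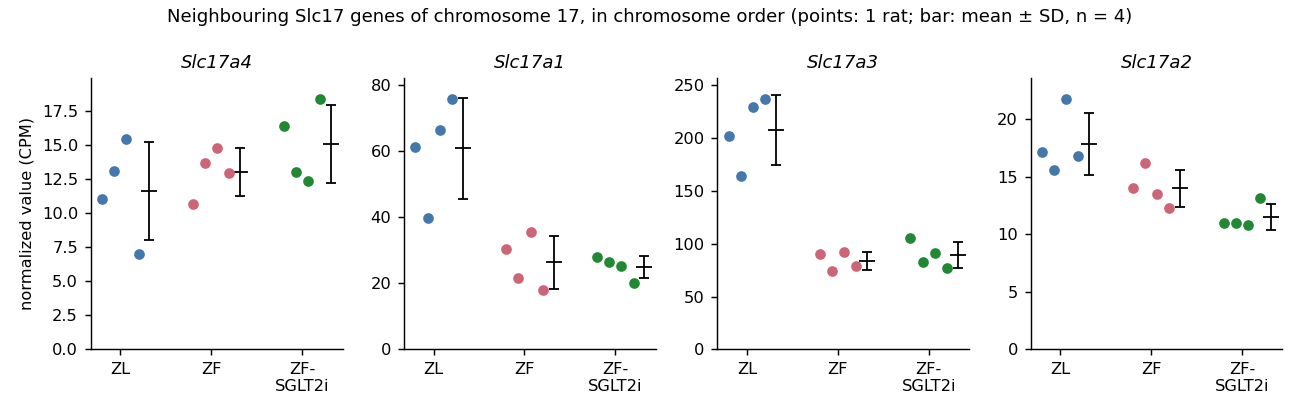
Normalized value (CPM, y axes from 0 and scaled per gene) of 4 neighbouring Slc17 genes in chromosome order, by group. Each point is 1 rat and each bar the mean ± SD of 4 rats. The inner genes Slc17a1 and Slc17a3 separate ZL from the other groups, and Slc17a4 overlaps in all groups.

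Up to 2 genes on each side of the other members were looked at, and 2 of the 12 tested were called in ZF compared with ZL rats. Of all tested genes 8.19% were called higher and 10.6% lower, so this count is near the background. Ppm1k, which encodes a mitochondrial phosphatase of branched-chain amino acid breakdown and lies next to Abcg2, was lower by a log2 fold change of −1.28 (limma, adjusted p = 0.00193), and Nrxn2, next to Slc22a12, was higher by 0.46 (limma, adjusted p = 0.0481). The others were Herc3 at 0.028 and Nap1l5 at 0.21 near Abcg2, Rps6ka4 at 0.18 and Rasgrp2 at 0.44 near Slc22a12, and Wdr1 at −0.036 near Slc2a9. Near Pdzk1, Rnf115 was at −0.014 and Gpr89b at 0.049, and near Xdh, Memo1 was at −0.024, Ehd3 at 0.56 and Galnt14 at −0.14.

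Pdzk1 encodes a scaffold with several PDZ domains. Its value was 840, 797, 809 and 724 CPM in ZL rats, 554, 622, 683 and 536 CPM in ZF rats, and 581, 551, 583 and 451 CPM in ZF-SGLT2i rats. All ZL rats were above all other rats, by a smaller margin than for Slc17a3. The means were 792 ± 49.1, 599 ± 67.5 and 541 ± 61.9 CPM (SD, n = 4 each), and the ZF mean was 75.6% of the ZL mean. The log2 fold change was −0.41 (95% interval −0.62 to −0.20; limma, adjusted p = 0.0116; two-sided exact permutation p = 0.0286). Quantile normalization gave −0.21, which did not pass (limma, adjusted p = 0.0852), in a range of 0.0011 to 0.714 over 23 alternatives.

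Xdh encodes xanthine dehydrogenase, which yields urate. Its value was 258, 252, 262 and 202 CPM in ZL rats, 231, 283, 307 and 225 CPM in ZF rats, and 265, 259, 282 and 225 CPM in ZF-SGLT2i rats. The groups overlapped, and ZL rat 4 was the lowest of all 12 rats. The means were 244 ± 28.0, 261 ± 39.9 and 258 ± 23.8 CPM (SD, n = 4 each). The log2 fold change in ZF compared with ZL was 0.10, with a 95% interval of −0.14 to 0.33 (limma, adjusted p = 0.599).

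Canagliflozin was compared with no drug in ZF rats, to ask whether the genes differed after 8 weeks of treatment. In ZF-SGLT2i compared with ZF rats, 0 of the 7 genes were called by limma, and 0 by edgeR and 0 by DESeq2 on the recovered reads. Of all tested genes, 1.39% were called higher and 1.75% lower. At an unadjusted p under 0.05, 1 of the 7 was lower, Slc22a12, beside 8.64% of all tested genes. The same gene alone had every ZF-SGLT2i rat below every ZF rat, which was so for 5.63% of all tested genes. The median log2 fold change of the 7 genes was −0.04, beside 0.0064 over all tested genes.

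Slc22a12 in ZF-SGLT2i rats was 71.6% of the ZF mean, a log2 fold change of −0.46 (95% interval −0.85 to −0.08; limma, adjusted p = 0.198). The two-sided exact permutation test reached its smallest p of 0.0286. Centred on the proximal tubule markers described below, Slc22a12 was at −0.29 (95% interval −0.67 to 0.098; limma, adjusted p = 0.328). A fit with only the ZF and ZF-SGLT2i rats called it (limma, adjusted p = 0.0351), and over 23 alternatives its adjusted p ranged from 0.0351 to 0.417. For the other 6 genes the 95% intervals were −0.26 to 0.19 for Slc2a9, −0.48 to 0.30 for Abcg2 and −0.49 to 0.41 for Slc17a1. They were −0.18 to 0.34 for Slc17a3, −0.36 to 0.06 for Pdzk1 and −0.25 to 0.23 for Xdh. For Abcg2, Slc17a1, Slc17a3 and Pdzk1 the upper bound lies below the distance between the ZF and ZL means on the same scale.

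ZF-SGLT2i rats were also set beside ZL rats. The same 5 genes were called lower and 0 higher (limma), beside 15.0% of all tested genes called lower and 12.4% called higher. In all 5, every ZF-SGLT2i rat was below every ZL rat, which was so for 15.1% of all tested genes. Both obese groups were compared with the same ZL rats, so these calls are not independent of those in ZF. Slc22a12 differed most, at 35.9% of the ZL mean (log2 fold change −1.42, 95% interval −1.80 to −1.03; limma, adjusted p = 0.000131). Slc17a1 and Slc17a3 were at −1.23 and −1.21 (limma, adjusted p = 0.00107 and 2.19e-05), Abcg2 at −0.80 (limma, adjusted p = 0.00566) and Pdzk1 at −0.55 (limma, adjusted p = 0.00119). Slc2a9 at −0.10 and Xdh at 0.08 were not called (limma, adjusted p = 0.517 and 0.619).

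**Figure D3:**
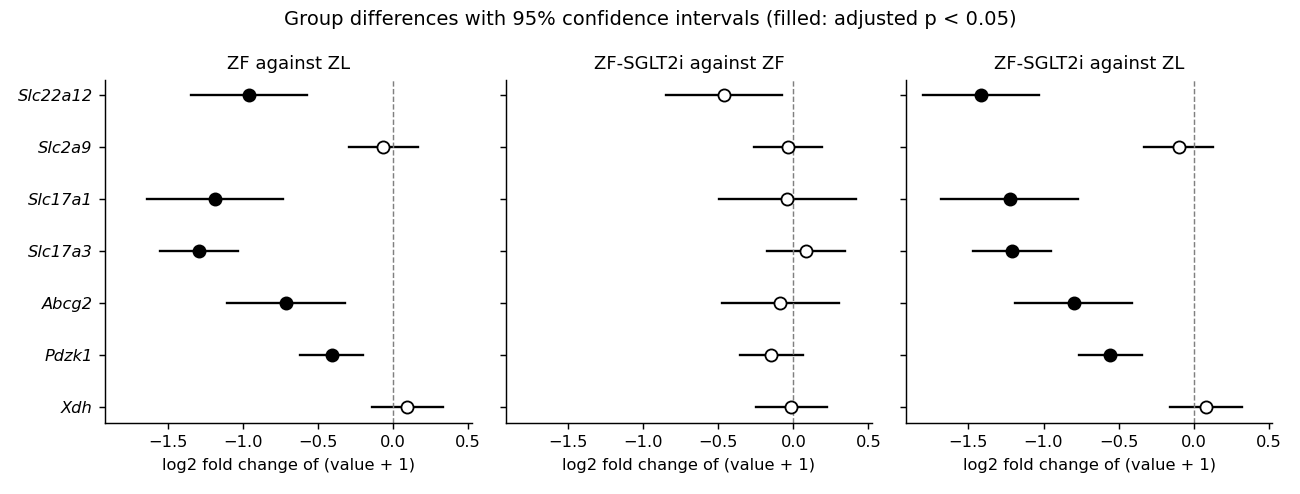
Log2 fold change of (CPM + 1) of the 7 genes with its 95% interval from limma, in the 3 comparisons (4 rats per group). Filled points have an adjusted p under 0.05. Slc22a12, Slc17a1, Slc17a3, Abcg2 and Pdzk1 lie below 0 in both comparisons with ZL, and all 7 points are open for ZF-SGLT2i against ZF.

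Rats of a group also differed from each other in a shared way. After group means were removed, the log2 values of Slc17a1 and Slc17a3 had a Pearson r of 0.85 over the 12 rats, Abcg2 and Slc17a1 of 0.83, and Pdzk1 and Xdh of 0.92. Slc22a12 had r of 0.59 with Slc17a1, −0.20 with Pdzk1 and −0.45 with Xdh. Slc17a3 had r of 0.26 with Pdzk1 and 0.013 with Xdh. These are descriptions, and both genes of a pair were read in the same library of each rat. ZF rat 4 was the highest ZF rat in Abcg2, Slc17a1, Slc17a3, Pdzk1 and Xdh, and ZF rat 2 the highest in Slc22a12.

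Over the 8631 genes whose mean reached 10 CPM, the gene whose log2 values followed each member most closely over the 12 rats was named, again as a description that takes in the group differences. For Slc22a12 it was Acss2, which makes acetyl-CoA from acetate (Pearson r = 0.98), followed by Atp11a and Nomo1. For Slc17a1 it was Gsta2, a glutathione transferase (r = 0.98), and for Slc17a3 it was Aspdh (r = 0.98). A1cf, an RNA-binding partner of the APOBEC1 editing enzyme, was among the first 3 for both Slc17 genes. Abcg2 was followed most closely by Ggh (r = 0.98), Pdzk1 by Dlst, a subunit of a citric acid cycle enzyme (r = 0.99), Xdh by Acp5 (r = 0.95), and Slc2a9 by Commd4 (r = 0.91).

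A wider list of purine and urate genes gave the surroundings of the 7 members. It held 75 further names, of which 62 were in the table and tested. In ZF compared with ZL rats, 5 were called higher and 13 lower, and the median log2 fold change was −0.11 (limma). The share called higher is close to the 8.19% of all tested genes, and 10.6% of all tested genes were called lower. Without ZL rat 1 the number called was 7, and without ZF rat 5 it was 9. In ZF-SGLT2i compared with ZF rats, 0 were higher and 1 was lower, with a median of 0.013. Of all tested genes, 1.39% were called higher and 1.75% lower there, so this count is near the background. Compared with ZL, ZF-SGLT2i rats had 7 higher and 17 lower, with a median of −0.10, beside 12.4% and 15.0% of all tested genes.

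Carriers of organic anions held the largest differences of the wider list. Of 16 tested, 1 rose and 4 fell in ZF compared with ZL rats, beside 8.19% and 10.6% of all tested genes. Slc16a1 (MCT1), a carrier of lactate and other monocarboxylates, was 98.5, 119, 132 and 45.1 CPM in ZL rats and 17.2, 19.0, 40.5 and 12.1 CPM in ZF rats. No rat of one group reached the other, and the log2 fold change was −2.13 (limma, adjusted p = 0.00135). Slc22a24, a relative of Slc22a12, was 29.3, 7.20, 14.1 and 60.0 CPM in ZL rats and 7.38, 2.61, 2.99 and 1.86 CPM in ZF rats. ZL rats 4 and 1 were the highest in Slc22a24, as they were in Slc22a12, and the log2 fold change was −2.34 (limma, adjusted p = 0.00531). Slc22a7 (OAT2) fell by 1.69 on the log2 scale (limma, adjusted p = 0.0389), with 13 to 160 reads per ZL rat and 0 to 27 per ZF rat. Slc16a7 (MCT2) fell by 0.38 on the log2 scale (limma, adjusted p = 0.0179).

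Slc22a6 (OAT1), the blood-side carrier that takes organic anions into the proximal tubule cell, moved in the other direction. It was 722, 707, 726 and 525 CPM in ZL rats, 759, 838, 910 and 845 CPM in ZF rats, and 609, 567, 558 and 499 CPM in ZF-SGLT2i rats. Every ZF rat was above every rat of both other groups. The log2 fold change in ZF compared with ZL was 0.33 (limma, adjusted p = 0.0402) and fell with treatment by 0.59 on the log2 scale (limma, adjusted p = 0.00843). Slc22a6 was the gene of the wider list called in ZF-SGLT2i compared with ZF rats. Against ZL rats, the ZF-SGLT2i group had 1 of the 16 carriers higher (Slc2a6) and 5 lower (Abcc2, Slc16a1, Slc17a2, Slc22a24 and Slc22a7), beside 12.4% and 15.0% of all tested genes.

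Partners and regulators of the carriers gave 2 higher and 5 lower of 12 tested in ZF compared with ZL rats, beside 8.19% and 10.6% of all tested genes. Slc9a3r1 (NHERF1), a scaffold that like Pdzk1 holds luminal carriers, was 379, 299, 320 and 467 CPM in ZL rats and 256, 255, 277 and 214 CPM in ZF rats. The groups did not overlap, and the log2 fold change was −0.53 (limma, adjusted p = 0.0112). Pdzk1ip1, a small membrane partner of PDZK1, was at −0.43 (limma, adjusted p = 0.0141), and Hnf4g, a nuclear receptor, at −0.58 (limma, adjusted p = 0.0141). Pdzd3, another PDZ domain protein, was at −0.29 (limma, adjusted p = 0.0260). Hnf4a, the receptor related to Hnf4g, had a log2 fold change of −0.16 (limma, adjusted p = 0.133). Of those that rose, Lrrc16a, which regulates actin capping, was at 0.38 (limma, adjusted p = 0.00506) and Slc9a3r2 (NHERF2), another scaffold, at 0.41 (limma, adjusted p = 0.0281). With treatment, 0 of the 12 were called compared with ZF (limma), beside 1.39% of all tested genes called higher and 1.75% lower. Compared with ZL, ZF-SGLT2i rats had 2 higher (Lrrc16a and Slc9a3r2) and 3 lower (Hnf4a, Pdzk1ip1 and Slc9a3r1), beside 12.4% and 15.0% of all tested genes. There Hnf4a was at −0.25 and called (limma, adjusted p = 0.0207), and Hnf4g and Pdzd3 were not called (limma, adjusted p = 0.0637 and 0.116).

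On the production side, 1 of 11 purine breakdown genes tested rose in ZF compared with ZL rats and 0 fell. The riser was Nt5c1a, a nucleotidase, from 4.60 ± 0.642 to 7.28 ± 1.42 CPM (SD, n = 4 each; limma, adjusted p = 0.0222). Of 18 salvage and synthesis genes, 1 rose and 3 fell. These counts are near the shares of all tested genes, 8.19% higher and 10.6% lower, and are not a result about these groups. Impdh1, which commits IMP to guanine nucleotides, was 7.16 ± 0.317 CPM in ZL and 11.4 ± 1.47 CPM in ZF rats (SD, n = 4 each; log2 fold change 0.60; limma, adjusted p = 0.00343). Adk, which returns adenosine to AMP, was at −0.36 (limma, adjusted p = 0.0260), and Paics and Adsl, steps of purine synthesis, were both at −0.23 (limma, adjusted p = 0.0241 and 0.0436). Of 5 genes for the molybdenum cofactor that xanthine dehydrogenase needs, Mocs2 fell by 0.26 on the log2 scale (limma, adjusted p = 0.0265). Between treated and untreated ZF rats, 0 of these 34 genes were called by limma, beside 1.39% of all tested genes called higher and 1.75% lower. Set against ZL, ZF-SGLT2i rats had 3 breakdown genes higher (Ampd3, Nt5c1a and Pnp) and 1 lower (Nt5e), 1 salvage or synthesis gene higher (Impdh1) and 7 lower (Adk, Adsl, Adss, Aprt, Paics, Prps2 and Prpsap1), and 1 cofactor gene lower (Mocs2). Of all tested genes, 12.4% were higher and 15.0% lower in that comparison.

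**Figure D4:**
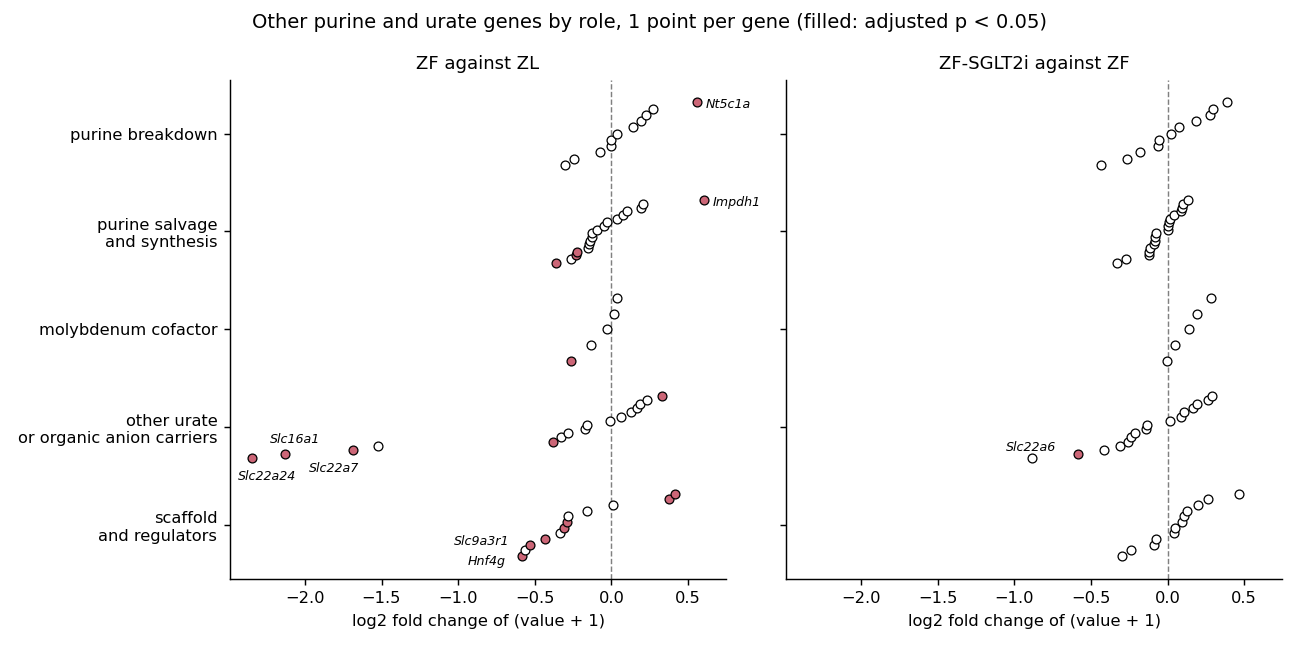
Log2 fold change of (CPM + 1) of the 62 further purine and urate genes by role (left, ZF against ZL; right, ZF-SGLT2i against ZF; 4 rats per group). Each point is 1 gene and filled points have an adjusted p under 0.05. Slc22a24, Slc16a1 and Slc22a7 lie farthest to the left in ZF against ZL, and Slc22a6 is the filled point in the right panel.

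Most of the members are proximal tubule genes, and markers of that segment moved with them. All 20 markers were tested. In ZF compared with ZL rats, 0 were called higher and 8 lower (Anpep, Gatm, Ggt1, Khk, Mep1a, Miox, Slc27a2 and Slc3a1; limma), with a median log2 fold change of −0.22, beside 8.19% of all tested genes called higher and 10.6% lower. Their summed value was 36439, 33679, 36979 and 34400 CPM in ZL rats, 25690, 26541, 32115 and 23219 CPM in ZF rats, and 25406, 23020, 24964 and 19874 CPM in ZF-SGLT2i rats. All ZL rats were above all others, and ZF rat 4 was the highest of the obese rats, as it was in Abcg2, Slc17a1, Pdzk1 and Xdh. The marker with the highest CPM, which is not corrected for length, was Lrp2, the endocytic receptor megalin, at 10736 ± 422 CPM in ZL, 7835 ± 1228 CPM in ZF and 6440 ± 1017 CPM in ZF-SGLT2i rats (SD, n = 4 each). Lrp2 was not called in ZF against ZL or in ZF-SGLT2i against ZF (limma, adjusted p = 0.0731 and 0.425). It was called in ZF-SGLT2i against ZL (limma, adjusted p = 0.00573). Between treated and untreated ZF rats, 1 marker was higher (Slc27a2) and 1 lower (Fbp1) with treatment (1.39% and 1.75% of all tested genes), and the median was −0.19. Against ZL, 0 were higher and 11 lower in ZF-SGLT2i rats (12.4% and 15.0% of all tested genes), and the median was −0.39.

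The members were then measured relative to these markers, by centring each rat on its mean log2 value of the 20 markers. The centring raised the median of all genes by 0.37 in ZF compared with ZL rats, so it gives a difference from the proximal tubule markers and not from the whole cortex. Relative to the markers, Slc17a3 was at −0.92, Slc17a1 at −0.82 and Slc22a12 at −0.59 (limma, adjusted p = 7.41e-05, 0.00191 and 0.0163). Abcg2 was at −0.34 (limma, adjusted p = 0.0493), and in ZF-SGLT2i compared with ZL rats at −0.25 and no longer called (limma, adjusted p = 0.104). Pdzk1 was at −0.04 (limma, adjusted p = 0.714), and in ZF-SGLT2i compared with ZL rats at −0.0092 (limma, adjusted p = 0.928), so its call was lost in both comparisons. Slc2a9 and Xdh lay above the markers, at 0.30 and 0.46 (limma, adjusted p = 0.0485 and 0.00281). So did most genes, as 6088 of the 11633 tested were called higher with centring and 229 lower. Relative to the centred median of all genes, 0.36, Slc2a9 was at −0.057 and Xdh at 0.10. In ZF-SGLT2i compared with ZL rats, where the centring raised the median of all genes by 0.55, Slc2a9 and Xdh were at 0.45 and 0.63 (limma, adjusted p = 0.00412 and 0.000107). There 9351 genes were called higher and 211 lower, and relative to the median Slc2a9 was at −0.10 and Xdh at 0.082.

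**Figure D5:**
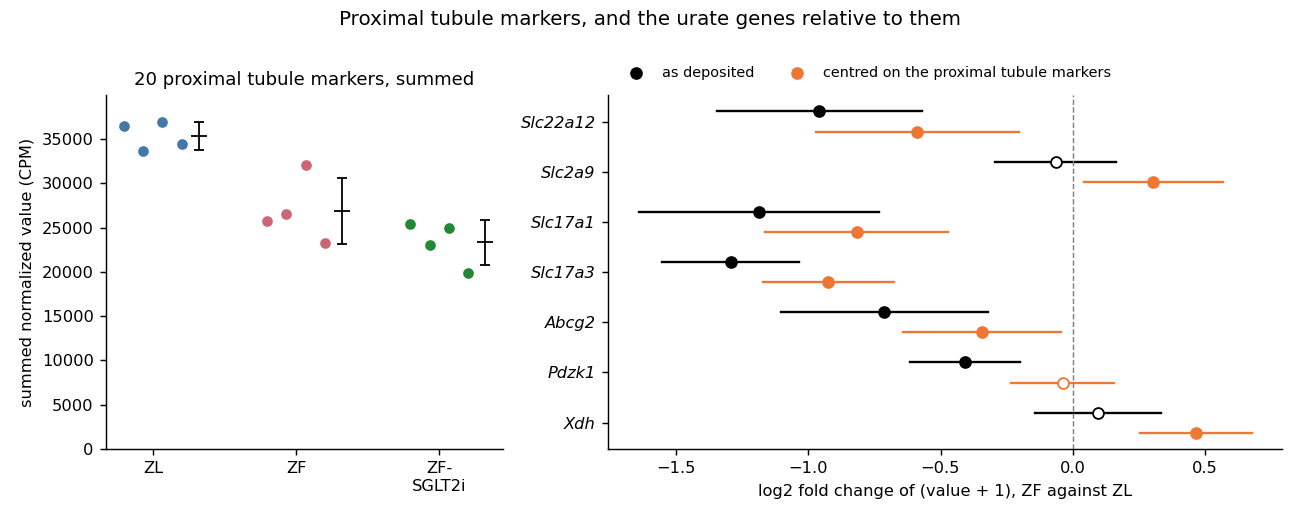
Left, summed value (CPM, y axis from 0) of 20 proximal tubule markers in each rat, with the mean ± SD of 4 rats. Right, log2 fold change of (CPM + 1) in ZF against ZL for the 7 genes with 95% intervals from limma, as deposited and after centring on the markers (filled points have an adjusted p under 0.05). Slc17a1, Slc17a3, Slc22a12 and Abcg2 stay below 0, and Pdzk1 moves to −0.04.

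Markers of other cells were counted in the same way, beside 8.19% of all tested genes called higher and 10.6% lower in ZF compared with ZL rats. Of 9 injured tubule markers tested, 6 rose (Havcr1, Krt18, Krt8, Lcn2, Spp1 and Vim) and 0 fell, with a median log2 fold change of 0.62 (limma). The one highest in CPM, Spp1, was 169 ± 5.97 CPM in ZL and 813 ± 550 CPM in ZF rats (SD, n = 4 each). Of 8 podocyte markers, 5 rose and 0 fell (median 0.33), with Podxl the highest in CPM at 747 ± 98.3 and 988 ± 127 CPM. Of 10 endothelial markers, 2 rose, Eng and Tie1, and 0 fell (median 0.31). The highest in CPM, Kdr, was at 175 ± 30.6 and 216 ± 21.3 CPM and was not called (limma, adjusted p = 0.0996). Of 9 macrophage markers tested, 1 rose, Cd14, and 0 fell (median 0.39), and the highest in CPM was Csf1r at 31.2 ± 5.15 and 41.5 ± 8.01 CPM. Of 9 collecting duct markers 1 rose, Scnn1g (median 0.23), and of 7 thick limb and distal tubule markers 1 fell, Egf (median −0.10), with Aqp2 and Umod the highest in CPM. The counts of the macrophage, collecting duct, and thick limb and distal tubule lists are near the shares of all tested genes. Of 4 liver markers tested 1 fell, Cyp2c11 (median −0.06), and Alb and Apoa1 were too low to be tested.

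After treatment, compared with ZF rats, 1.39% of all tested genes were called higher and 1.75% lower (limma). The injured tubule list had 0 higher and 1 lower (Vcam1), with a median log2 fold change of −0.25. The collecting duct list had 1 higher (Aqp2) and 0 lower (median 0.37), and the liver list 1 higher (Serpina1) and 0 lower (median −0.07). The podocyte, endothelial, macrophage, and thick limb and distal tubule lists had 0 called. Against ZL, where 12.4% of all tested genes were called higher and 15.0% lower, ZF-SGLT2i rats had 7 of 9 collecting duct markers higher and 0 lower (median 0.69), 5 of 9 injured tubule markers higher and 1 lower (median 0.48) and 5 of 8 podocyte markers higher and 0 lower (median 0.42). The thick limb and distal tubule list had 1 higher and 2 lower of 7, the endothelial list 2 higher and 0 lower of 10, the macrophage list 1 higher and 0 lower of 9, and the liver list 1 higher and 1 lower of 4. The part of these cell types in the values of the 7 urate genes was not tested beyond the proximal tubule markers.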

How the data were processed

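Total RNA of 12 renal cortices was depleted of ribosomal RNA and made into stranded libraries, which were sequenced as paired 150 bp reads. The submitters' processing notes name Trimmomatic 0.38, Bowtie2, RSEM 1.3.0, edgeR and build rn6, with no roles or annotation given. The authors deposited a normalized signal value per gene and rat. Every value (100%) was a whole multiple of a step per rat, to a tolerance of 1e-06, and the steps were those of CPM with TMM factors, so whole reads were recovered. No 2 rats of a group were copies (chi-square per gene 5.43 to 50.1). Labels number the rats and say no more of how they were sampled, so p-values measure the spread between these samples.

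The members and lists were chosen with earlier results of these data known. The 3 groups were fitted together on log2(value + 1) by limma 3.58.1 (R 4.3.3) with a trended eBayes step, for the 11633 genes reaching a value of 1 in 4 or more rats, and two-sided p-values were adjusted over these genes (Benjamini-Hochberg). Single members were also tested by exact permutation of the 70 assignments of 4 rats against 4. Named genes were the 7 members, up to 4 of each role in the wider list with the smallest adjusted p, the 3 genes most like each member, and in each marker list the gene highest in CPM and the called genes. Others named, such as Slc17a4, Slc17a2, the neighbours, Hnf4a, Pdzd3, Lrrc16a and Slc9a3r2, complete a count or a position. A gene that was counted and a motif that was searched are not reported here. The edgeR 4.0.16 and DESeq2 1.42.0 tests on recovered reads and other settings were alternatives, and limma was tested on simulated data. Gene order and promoters came from RefSeq on GRCr8, whose coordinates were not mixed with rn6. Counting error is widest for genes with few reads. Values are not corrected for transcript length, so levels were not compared between members, and markers are ranked by CPM alone.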

Additional observations from a re-analysis of the deposited data

Results flagged for a closer look

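Xdh in ZL rat 4 was 202.3 CPM, whereas the other 3 ZL rats were at 252 to 262 CPM, a gap that is wide beside the range of its group by Dixon's criterion. The 7 genes in 3 groups gave 21 groups of 4 rats, of which 1 met this criterion, and chance gives about 1 in 20. Without ZL rat 4, the log2 fold change of Xdh in ZF-SGLT2i compared with ZL rats was −0.0044 in place of 0.08.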

How the results depend on the processing

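The fold changes of the 7 urate genes in 3 comparisons were recomputed under 23 alternatives each, 483 values in all, of which 451 kept the direction and side of the threshold of the reported value. Another 7 were no longer called, 3 became called in the same direction and 22 changed direction, 2 of which, for Slc2a9, became called as well. Slc17a1 and Slc17a3 were called lower in both comparisons with ZL under all 23. Centring on the proximal tubule markers gave 6317, 209 and 9562 genes called in ZF against ZL, in treated against untreated ZF and in treated ZF against ZL (2185, 366 and 3184 as reported), and 31, 0 and 46 of the wider list (18, 1 and 24 as reported) and moved the median of all genes by 0.37, 0.18 and 0.55. Quantile normalization turned the split of calls in ZF against ZL from 953 higher and 1232 lower to 1103 and 942. DESeq2 called 641 genes and 3 of the wider list in ZF-SGLT2i against ZF, and array quality weights 689 and 3. A fit with only those 2 groups called 1 urate gene, Slc22a12.

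The rat numbers did not pair the rats: 9 same-numbered pairs had correlations of −0.376 to 0.253, 2 of them over 0.1. The replicate block gave 807, 223 and 1502 genes called in the 3 comparisons, 3 urate genes in ZF against ZL (Abcg2, Slc17a1 and Slc17a3; Slc22a12 was at −0.81 and Pdzk1 at −0.33, with limma adjusted p = 0.0586 and 0.0814), and 2 and 9 of the wider list in ZF against ZL and ZF-SGLT2i against ZL.

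Leaving out 1 rat gave 1389 to 2453 genes called in ZF against ZL, 4 to 5 urate genes and 7 to 21 of the wider list. The count moved over 1.5 times without ZL rat 1 (1389), ZF rat 2 (1451) or ZF rat 3 (1426). In ZF-SGLT2i against ZF the ranges were 176 to 570 genes, 0 urate genes throughout and 1 to 4 of the wider list. The count was 207 without ZF rat 2, 184 without ZF rat 3, 187 without ZF rat 4 and 570 without ZF rat 5. It was 176, 210 and 182 without ZF-SGLT2i rats 3, 4 and 6. The wider list count was 4 without ZL rat 4, 3 without ZF rat 5 and 2 without ZF-SGLT2i rat 2. In ZF-SGLT2i against ZL they were 2241 to 3302 genes, 5 urate genes throughout and 16 to 25 of the wider list. Slc17a1 and Slc2a9 had the fewest reads of the urate genes, 164 and 188 in the lowest rat, so counting error is widest there.

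The values that changed direction were not called as reported. With centring, Slc2a9 was called higher against ZL in both obese groups, and so was Xdh. In ZF and ZF-SGLT2i rats, 6088 and 9351 of the 11633 tested genes were called higher in the same way. The causes were not tested. In ZF against ZL, Slc2a9 was at 0.30 with centring, 0.057 with the block and −0.14 to 0.0038 with 1 rat left out. In ZF-SGLT2i against ZF, centring gave 0.14 for Slc2a9, 0.089 for Abcg2, 0.14 for Slc17a1, 0.030 for Pdzk1 and 0.16 for Xdh, and array weights gave 0.036 for Slc17a1. With 1 rat left out, the ranges there were −0.10 to 0.037 for Slc2a9, −0.21 to 0.069 for Abcg2, −0.20 to 0.11 for Slc17a1, −0.0014 to 0.15 for Slc17a3 and −0.081 to 0.068 for Xdh. In ZF-SGLT2i against ZL, Slc2a9 was at 0.45 with centring and 0.017 with the block, and Xdh was at −0.0044 to 0.15 with 1 rat left out, the lowest without ZL rat 4.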
